A study of Mus musculus with 2 samples.

Results

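The common gamma chain cytokine receptors are a family of 7 genes in these data, Il2rb, Il2rg, Il2ra, Il7r, Il15ra, Il4ra and Il21r. They were found by symbol among the 27998 genes counted, and each symbol belonged to 1 Ensembl identifier. Il2rg encodes the common gamma chain, which pairs with a private chain to form the receptors for IL-2, IL-4, IL-7, IL-15 and IL-21. IL-7 binds Il7r with Il2rg, while IL-2 and IL-15 share Il2rb and Il2rg and gain affinity from Il2ra or Il15ra. The receptors signal through Jak1, Jak3 and the Stat proteins, and in T cells they are known for survival, proliferation and homeostatic maintenance, with IL-7 linked to IL-17-producing γδ T cells and IL-15 to cytotoxic ones.

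Single-cell RNA was measured in γδ T cells, T lymphocytes whose antigen receptor has a γ and a δ chain, in 1 library from the liver and 1 from the thymus. Both came from wild type C57BL/6J mice aged 8 weeks that had received no treatment, and the number of mice behind each library is not used here. Both were sorted as CD3ε+ TCRγδ+ cells, and only the thymic cells were first depleted of CD4- and CD8-bearing cells on magnetic beads. The libraries were made by 3′ capture in droplets, with a unique molecular identifier (UMI) on every transcript caught.

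Cells with 800 to 4000 genes and at most 6% mitochondrial UMIs were kept, 8075 of 8658 barcodes in the liver and 4351 of 4541 in the thymus. The kept cells held 24168037 hepatic and 17064752 thymic UMIs, with medians of 2741 and 3271 UMIs per cell. The libraries shared 56 barcodes among the kept cells. Doublets were kept, since the automatic threshold of Scrublet, a doublet caller, marked only 4 hepatic and 2 thymic cells and has therefore not worked. The sorted identity was checked with the 4 CD3 chain genes, whose summed level was between 2718 and 5056 CPM (UMIs of a gene per 1000000 UMIs of a group of cells) in every class but one. That class, led by myeloid genes, held 909 CPM.

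Both libraries were clustered together without the receptor genes or the pathway genes named below, and each class was read within each library. The thymus held 2428 immature cells (Hes1, Cd24a, Sox4), 1031 transitional-like cells (S1pr1, Cd200, Ccr7) and 529 cycling cells. The liver held 2828 C4-like cells (Cd40lg), 2766 C5-like cells (Ccl4, Gzmb, Tyrobp), 284 C7-like cells (Klra6, Klra7, Klrg1), 105 C8-like cells (Lyz2, Apoe, Cd74), 74 interferon-induced cells and 42 cycling cells. Both tissues held a class led by Ly6c2, Dapl1 and Nsg2, here the Dapl1 class, with 1114 hepatic and 182 thymic cells, and C6-like cells, which express Il17a, with 793 and 163. The leading genes of the transitional-like cluster, which also held 50 hepatic cells, included the hemoglobin genes Hba-a1, Hba-a2 and Hbb-bs. The immature, transitional-like, cycling, C4-like, C5-like, C7-like and C8-like clusters came almost wholly from 1 library, so for these a class and its library cannot be told apart. Levels below are CPM with exact Poisson 95% intervals, shares carry exact binomial 95% intervals and ratios exact conditional binomial 95% intervals. They describe the error of counting and nothing else. No difference has a replicate check, since each tissue gave 1 library and cells are not replicates, and no test was run.

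In GENCODE M21 on GRCm38 (mm10) all 7 are protein-coding genes. Il7r lies at chr15:9505788-9530176 and Il2rb at chr15:78479256-78495271, both on the minus strand, with 68949 kb between them. Il2ra (chr2:11642807-11693193) and Il15ra (chr2:11705290-11734317) are neighbours on the plus strand, 12.1 kb apart, as are Il4ra (chr7:125552120-125579474) and Il21r (chr7:125603429-125633570), 24.0 kb apart. Il2rg lies at chrX:101264378-101268255 on the minus strand.

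The promoter windows of RefSeq (GRCm38.p6, from 250 bases before to 50 after a gene's start) covered 6 of the 7 genes with 7 windows, and Il2rb had no entry. They were searched on both strands for TGTGGT, the core that Runx factors bind, for TCACACCT, a T-box motif, and for TTCNNNGAA, a Stat motif, because factors of these families are known to act on Il7r or Il2rb. TGTGGT was in 3 of the 7 windows, those of Il7r, Il21r and Il2rg, and in 16.8% of all 32851 windows. TTCNNNGAA was in the Il7r window alone and in 8.30% of all windows, and TCACACCT was in none of the 7 and in 1.28% of all. The stretches of 30 bases that hold the matches are shown on the gene's own strand because they are the only matches in the family, with the matched letters in capitals (ACCACA is TGTGGT on the other strand). They lie at chr15:9529999-9530028 and chr15:9529856-9529885 for Il7r, at chr7:125603384-125603413 for Il21r and at chrX:101268465-101268494 for Il2rg. Both Il7r stretches fall inside the Il7r gene of GENCODE, outside its annotated exons. A match describes these letters only.
Il7r, Stat motif: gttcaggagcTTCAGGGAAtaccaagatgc
Il7r, Runx motif: tagttccctgtcTGTGGTttagcaggcaca
Il21r, Runx motif: ggggcactgtttACCACAtcccctccccac
Il2rg, Runx motif: ggaatgatggtgTGTGGTgggggtgggtgt

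Il7r and Il2rb exchanged places as the higher gene of the pair between the tissues and between the effector classes. In the thymus as a whole Il7r stood at 74.4 CPM (70.4 to 78.6) and Il2rb at 44.7 CPM (41.6 to 48.0). In the liver Il7r was 124.5 CPM, 1.67-fold higher (1.57 to 1.79), and Il2rb 395.9 CPM, 8.85-fold higher (8.22 to 9.54). Il7r made up 62.5% (60.3% to 64.6%) of the pair's UMIs among thymic cells and 23.9% (23.2% to 24.7%) among hepatic cells. Since both genes are counted in the same cells, this share does not use the total of the other genes. The libraries differ in their make-up of classes, and the part of this in the 2 shares was not tested.

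Within the thymus the share followed the class. It was 69.6% in immature cells (64.7% to 74.1%), 59.5% in cycling cells (53.8% to 65.1%), 52.3% in transitional-like cells (48.4% to 56.2%) and 51.4% in the Dapl1 class (45.7% to 57.1%). The intervals of the last 3 overlap, and that of the immature cells overlaps only that of the cycling cells. Thymic C6-like cells stood above all of these at 86.2% (82.2% to 89.6%).

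In the liver the share ran from 71.4% in C6-like cells (69.1% to 73.5%) through 38.6% in the Dapl1 class (36.3% to 40.9%) and 20.2% in C4-like cells (19.1% to 21.4%) to 2.16% in C5-like cells (1.73% to 2.67%), in which 84 Il7r UMIs stood beside 3798 of Il2rb. C7-like cells lay at 15.3% (11.2% to 20.3%) and C8-like cells at 25.8% (15.5% to 38.5%). The transitional-like class held 46 UMIs of the pair in the liver, too few to place its 37.0% (23.2% to 52.5%) apart from the Dapl1 class. Leaving out the cells with a hemoglobin UMI, or those with an Apoe, C1qa, C1qb or Lyz2 UMI, kept the 9 class values of the immature, transitional-like, Dapl1, C4-like, C5-like, C6-like and C7-like cells within their intervals. Both of these alternatives were chosen after seeing the data.

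**Figure D1:**
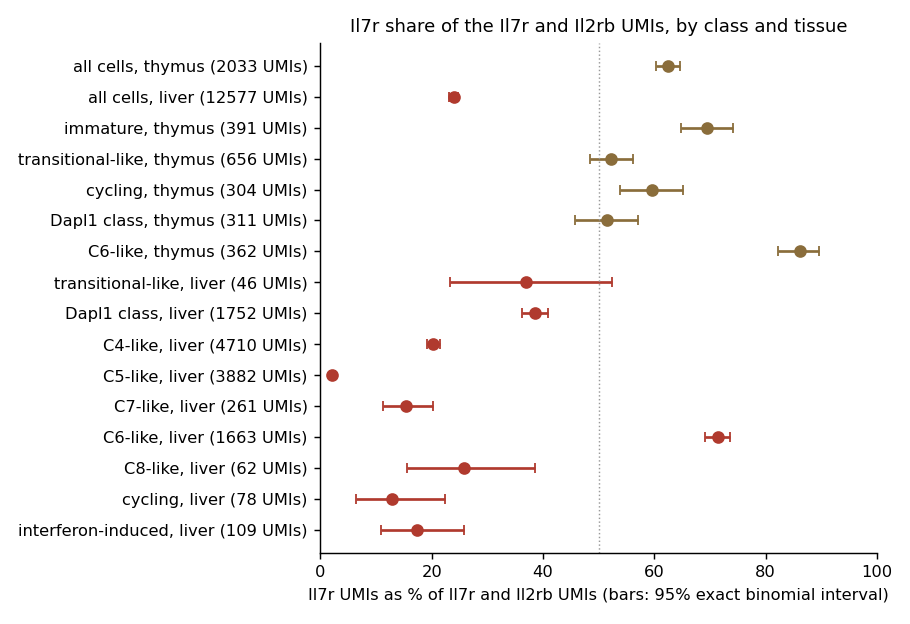
Il7r UMIs as a percentage of all Il7r and Il2rb UMIs (x axis) in each class and tissue, with 95% exact binomial intervals and the number of UMIs of the pair in parentheses; the dotted line marks 50%. The C6-like classes of both tissues, at 86.2% and 71.4%, stand at the right and the hepatic C5-like class, at 2.16%, at the left.

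Il7r, the IL-7 receptor alpha chain, had the widest range of the 6 receptor genes with a UMI in every class. It was 60.5-fold between thymic C6-like and hepatic C5-like cells, whose level is not told apart from background below. Il7r stood at 653.9 CPM (583.4 to 730.6) in thymic and 474.1 CPM (447.5 to 501.8) in hepatic C6-like cells. The Dapl1 class followed, with 269.2 CPM (229.1 to 314.3) in the thymus and 182.6 CPM (169.1 to 196.9) in the liver. Within each of these classes the thymic level was the higher one and the intervals do not overlap. C4-like cells held 116.7 CPM (109.4 to 124.3) and thymic transitional-like cells 103.2 CPM (92.5 to 114.7), and these 2 intervals overlap. Immature cells held 31.8 CPM (28.1 to 35.8), C7-like cells 46.7 CPM (33.4 to 63.6) and C5-like cells 10.8 CPM (8.62 to 13.4).

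Il2rb, the signalling chain for IL-2 and IL-15, ranged over 35.1-fold, in another order. At the bottom were immature cells, whose level is likewise not told apart from background. The Il2rb level was 488.5 CPM (473.0 to 504.2) in C5-like and 460.0 CPM (445.4 to 474.9) in C4-like hepatic cells, with overlapping intervals. The Dapl1 class was at 290.6 CPM (273.5 to 308.5) in the liver and 254.0 CPM (215.1 to 297.9) in the thymus, and hepatic C7-like cells at 258.1 CPM (225.2 to 294.5). The intervals of these 3 groups overlap. C6-like cells held 190.1 CPM (173.4 to 208.0) in the liver and 104.8 CPM (77.8 to 138.2) in the thymus. Transitional-like thymic cells held 94.2 CPM (84.0 to 105.2), and immature cells had the lowest level of all at 13.9 CPM (11.5 to 16.6).

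The 2 immature clusters held Il7r alike in CPM. Cluster 2, led by Tnfsf11, Slc35d1 and Hes1, had 31.5 CPM (26.4 to 37.2), and cluster 6, led by Tox2, Igfbp4 and Etv5, had 32.1 CPM (26.9 to 38.0). Il2rb was 10.6 CPM (7.73 to 14.1) in cluster 2 and 17.4 CPM (13.6 to 21.8) in cluster 6, with intervals that overlap slightly. Il4ra, at 23.9 CPM (19.5 to 28.9) and 16.2 CPM (12.6 to 20.5), overlapped slightly too. So did Il2ra, at 3.21 CPM (1.76 to 5.39) and 0.714 CPM (0.147 to 2.09). A slight overlap does not show that the levels are alike. Of the receptor genes only Il2rg had intervals apart, at 524.4 CPM (503.1 to 546.3) in cluster 2 and 395.8 CPM (377.0 to 415.2) in cluster 6. The cells of cluster 6 were deeper, with a median of 4445 UMIs against 2745, and the part of depth in this difference was not tested.

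The transitional-like class, near balance as a whole, held cells with unlike Il2rb levels. When the thymus was clustered alone, 68.3% of its cells fell in a cluster of 852 cells led by Hba-a1, S1pr1 and Ccr7 and 25.8% in a cluster of 288 cells led by Apoe, Tnfrsf9 and C1qa, with Eomes also among its leading genes. By its marker scores the first of these clusters was named interferon-induced and the second C8-like, with transitional-like next in both. In the joint clustering 136 of the 852 cells were immature cells. Il7r was 101.2 CPM in the first and 103.9 CPM in the second, a ratio of 1.03 (0.817 to 1.28). Il2rb was 36.3 CPM in the first and 206.9 CPM in the second, 5.71-fold higher (4.47 to 7.33), so that the Il7r share was 73.6% (68.7% to 78.1%) in one and 33.4% (28.4% to 38.7%) in the other. Eomes, a T-box factor known to act on Il2rb, was 46.0-fold higher (17.2 to 173.0) in the second cluster, at 70.2 CPM against 1.53 CPM, and Tbx21, which encodes the related factor T-bet, had 2 UMIs there and none in the first. Apoe and C1qa, macrophage genes, lead this cluster, but 277 of its 288 cells had no UMI of Apoe, C1qa, C1qb or Lyz2, and Il2rb stood at 216.0 CPM (188.7 to 246.2) in these 277 against 49.98 CPM (10.3 to 146.1) in the other 11. This pair of clusters was set side by side after its levels had been seen.

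**Figure D2:**
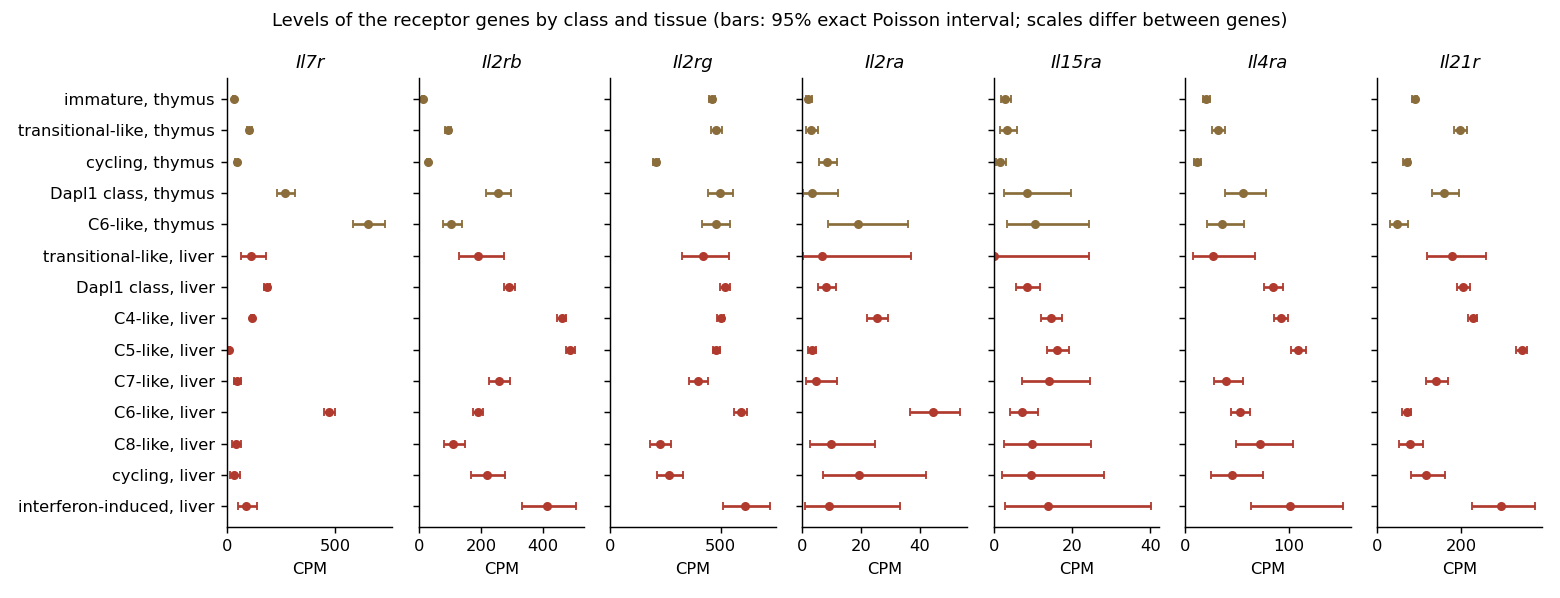
Level of each receptor gene in CPM (x axes, scales differ between genes) in 14 class and tissue groups, with 95% exact Poisson intervals; brown marks thymic and red marks hepatic cells. Il7r is highest in the C6-like classes and Il2rb in the C5-like and C4-like classes, while Il2rg varies 2.98-fold over all groups.

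Cell by cell the same order was seen. To put cells on 1 depth, 1500 UMIs were drawn at random from each, which left out 5 hepatic and 7 thymic cells as too shallow. An Il7r UMI was then in 60.7% of thymic C6-like cells (52.8% to 68.3%), 51.3% of hepatic C6-like cells (47.8% to 54.9%), 21.5% of the hepatic Dapl1 class, 14.5% of C4-like cells and 1.59% of C5-like cells (1.16% to 2.13%). Without thinning these shares were 79.1%, 71.6%, 38.7%, 24.2% and 2.75%. Median depths of the 4 hepatic classes were 2735, 3048, 2708 and 2690 UMIs.

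An Il2rb UMI was in 49.8% of C5-like cells (47.9% to 51.7%), 47.6% of C4-like cells, 32.1% of the hepatic Dapl1 class, 22.7% of hepatic and 12.9% of thymic C6-like cells, 11.4% of transitional-like and 1.73% of immature thymic cells (1.25% to 2.33%). Without thinning these were 69.8%, 67.4%, 52.8%, 39.1%, 23.9%, 20.5% and 4.70%. Free RNA in the droplets gives all cells of a library a like low share, so the lowest class bounds it. For Il7r in the liver that is the 1.59% of C5-like cells, and in the thymus the 4.00% (3.26% to 4.86%) for Il7r and the 1.73% for Il2rb of immature cells, with a median of 3182 UMIs. The bound is an upper limit, and how much of these shares is expression was not tested. They are therefore not told apart from background here and not read as expression. The 69.6% share of Il7r in the pair in immature cells therefore rests on 2 genes at this bound. Ratios to the Il7r level of C5-like cells or to either level of immature cells are to levels that may be background in part or whole. The B cell-like cells, which should hold little Il2rb, numbered 14 in the liver, with a median of 2719 UMIs. Il2rb was in 2 of them (14.3%, 1.78% to 42.8%) and Il7r in 1, which is too few to set a level. The 14.3% of C8-like cells with Il2rb (8.22% to 22.5%) is not above that share. It is also the lowest hepatic share of Il2rb among classes with at least 20 cells, and so the bound there. Its interval overlaps that of hepatic C6-like cells, 22.7% (19.8% to 25.8%). In CPM the 2 classes stood apart, at 111.6 (81.7 to 148.8) and 190.1 (173.4 to 208.0). How much of the Il2rb in hepatic C6-like cells, alone or with Il7r, is free RNA was not tested.

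**Figure D3:**
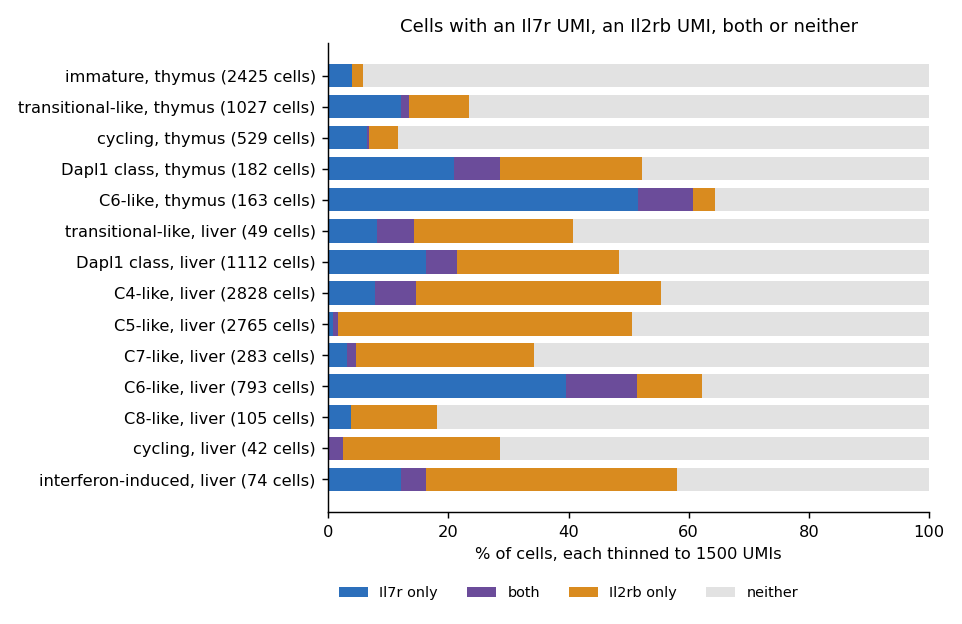
Percentage of cells in each class and tissue (x axis) with a UMI of Il7r only, Il2rb only, both or neither, after each cell was thinned to 1500 UMIs. Cells with Il7r only are the largest group in the C6-like bars of both tissues, cells with Il2rb only make up 40.9% of the C4-like and 49.0% of the C5-like bar, about as many as have neither (44.6% and 49.4%), and cells with both make up at most 11.7% of a class.

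Cells with both chains were counted to ask whether the exchange also ran between the cells of 1 class. Both were in 11.7% of hepatic C6-like cells (9.57% to 14.2%), 9.20% of thymic C6-like cells, 7.69% of the thymic and 5.22% of the hepatic Dapl1 class, 6.75% of C4-like cells and 0.832% of C5-like cells. The product of the 2 single shares, which is what independent detection gives, was 11.6%, 7.82%, 8.95%, 6.90%, 6.92% and 0.793%. Of these 6 classes, only in the hepatic Dapl1 class did the product lie outside the interval of the observed share (3.98% to 6.69%). There Il2rb was in 24.3% of cells with Il7r (19.0% to 30.2%) and 34.2% of cells without it (31.1% to 37.5%). These intervals do not overlap. The value in cells with Il7r was also the lower one at 1000 UMIs, 19.5% (14.0% to 25.9%) against 23.9% (21.2% to 26.8%), and at 2000 UMIs, 35.8% (30.2% to 41.6%) against 39.0% (35.5% to 42.6%), with overlapping intervals at both depths. Without thinning, where deeper cells detect both genes more often, the values were 51.7% (46.9% to 56.5%) and 53.4% (49.6% to 57.2%). In C4-like cells the values were 46.5% and 47.8%, and in hepatic C6-like cells 22.9% and 22.5%, with overlapping intervals, so no such gap was detectable in these 2 classes at 1500 UMIs.

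In the thymus the cells could also be ordered without clusters, by Cd24a, which encodes CD24, a surface protein that γδ thymocytes lose as they mature. Il7r was 115.3 CPM (104.7 to 126.7) in the 2504 cells with no Cd24a UMI, 55.7 CPM (44.3 to 69.0) in the 994 with 1, 30.4 CPM (18.6 to 47.0) in the 438 with 2 and 21.2 CPM (11.3 to 36.3) in the 408 with 3 or more. Il2rb was 62.6 CPM (54.8 to 71.1), 41.6 CPM (31.9 to 53.3), 9.13 CPM (3.35 to 19.9) and 13.1 CPM (5.64 to 25.8). Both were higher in cells with less Cd24a, and the last 2 groups of each overlap. The Il7r share did not follow that order, with 64.8%, 57.2%, 76.9% and 61.9%, and the last 2 values rest on 26 and 21 UMIs. Immature cells made up 44.7% of the cells with no Cd24a UMI and 86.0% of those with 3 or more, so these groups are ranges of 1 count and not stages.

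**Figure D4:**
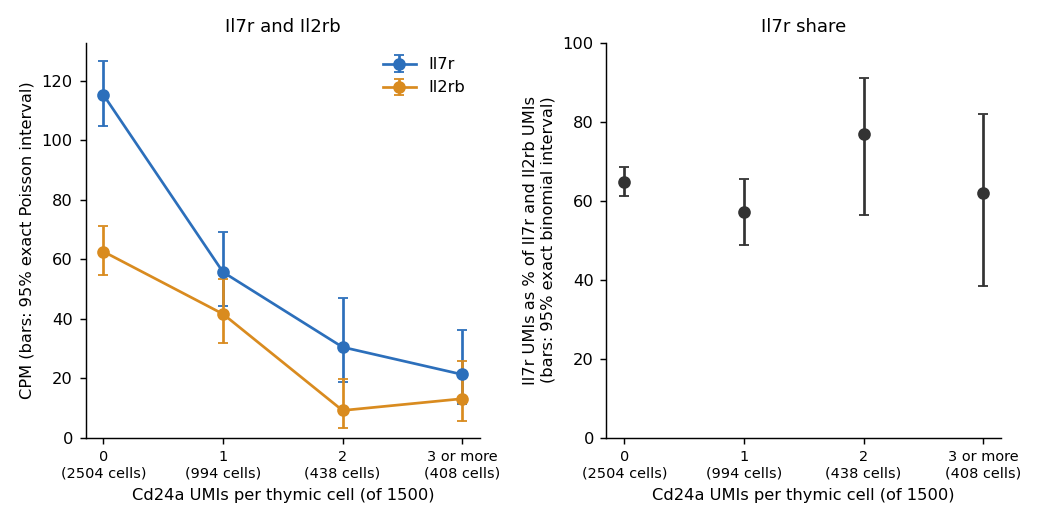
Left, Il7r and Il2rb in CPM (y axis) in thymic cells grouped by their Cd24a UMIs after thinning to 1500 UMIs (x axis), with 95% exact Poisson intervals; right, the Il7r share of the pair with 95% exact binomial intervals. Both genes are highest in cells with no Cd24a UMI, at 115.3 and 62.6 CPM, while the share shows no order.

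Il2rg, the shared chain, varied least in CPM among the 6 genes with a UMI in every group. It lay between 204.8 CPM (191.0 to 219.2) in cycling thymic cells and 610.9 CPM (511.5 to 724.0) in interferon-induced hepatic cells. Thymic immature and transitional-like cells, both Dapl1 groups, C4-like and C5-like cells all fell between 461.2 and 519.4 CPM, while C8-like cells had 223.1 CPM. An Il2rg UMI was in 47.8% of immature and 56.9% of hepatic C6-like cells after thinning, and in a share between these in transitional-like thymic, C4-like, C5-like, both Dapl1 and thymic C6-like cells. It was in 30.5% of C8-like and 27.0% of cycling thymic cells. Cycling thymic cells had a median depth of 7097 UMIs, so their low CPM and thinned share are relative to a larger total. Per cell they held 1.56 Il2rg UMIs, against 1.63 in immature and 1.55 in transitional-like thymic cells. Without thinning 73.0% of them had an Il2rg UMI, against 74.3% of immature cells. After thinning, Il2rg was found together with Il7r in 29.5% of hepatic C6-like, 7.71% of C4-like and 0.904% of C5-like cells, and together with Il2rb in 11.7%, 24.8% and 23.8%.

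Il2ra, the IL-2 receptor alpha chain, was low and was highest in the C6-like and C4-like classes of the liver. C6-like cells held 44.3 CPM (36.5 to 53.4) and C4-like cells 25.3 CPM (22.0 to 29.04), against 3.22 CPM (2.08 to 4.75) in C5-like cells. Thymic C6-like cells, with 9 UMIs, stood at 18.9 CPM (8.63 to 35.8). Of 351 hepatic cells with an Il2ra UMI before thinning, 187 were C4-like (53.3%, in a class with 35.0% of the cells) and 101 C6-like (28.8%, in a class with 9.82%). None of the 351 had a UMI of Foxp3, the regulatory T cell factor. In the thymus 61 cells had an Il2ra UMI, of which 26 were cycling cells, whose median depth of 7097 UMIs was the highest of the thymic classes with at least 20 cells. Il2ra, Il2rb and Il2rg, the 3 chains of the high-affinity IL-2 receptor, were found together in 1.06% of C4-like and 1.01% of hepatic C6-like cells and in 0.0362% of C5-like cells.

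Il15ra, which presents IL-15, did not exceed 16.2 CPM (13.5 to 19.3), the level of C5-like cells. C4-like cells were at 14.7 CPM (12.2 to 17.6) and C7-like cells at 14.0 CPM (7.24 to 24.5). The hepatic Dapl1 and C6-like classes were lower, at 8.37 CPM (5.69 to 11.9) and 7.19 CPM (4.26 to 11.4), and immature cells were at 2.92 CPM (1.89 to 4.31). All 13 pairs of neighbours in the order of its 14 levels had overlapping intervals.

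Il4ra, the IL-4 receptor chain, stood at 109.3 CPM (102.1 to 116.9) in C5-like, 92.3 CPM (85.8 to 99.1) in C4-like and 85.1 CPM (75.9 to 95.01) in hepatic Dapl1 cells. It was 52.7 CPM (44.1 to 62.5) in hepatic C6-like cells, 31.6 CPM (25.8 to 38.2) in transitional-like and 20.1 CPM (17.2 to 23.3) in immature thymic cells. Over these groups its order ran like that of Il2rb, but not over all. C7-like cells, at 39.7 CPM (27.5 to 55.5), were below hepatic C6-like cells in Il4ra and above them in Il2rb. C8-like cells, at 72.8 CPM (49.1 to 103.9), were above hepatic C6-like cells in Il4ra and below them in Il2rb. Of the 2 thymic clusters that shared the transitional-like cells, the one higher in Il2rb was lower in Il4ra, at 15.5 against 37.0 CPM.

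Il21r, the IL-21 receptor chain, was highest in C5-like cells at 343.3 CPM (330.4 to 356.5). Interferon-induced hepatic cells came next at 294.0 CPM (226.4 to 375.4). C4-like cells followed at 227.1 CPM (216.9 to 237.7) and the hepatic Dapl1 class at 204.5 CPM (190.1 to 219.6). Thymic transitional-like cells reached 197.3 CPM (182.5 to 213.0), close to the hepatic Dapl1 class and above immature cells at 88.9 CPM (82.7 to 95.5). The C6-like cells had the lowest levels, 69.9 CPM (59.9 to 81.1) in the liver and 48.2 CPM (30.6 to 72.3) in the thymus. Cycling thymic cells, at 70.5 CPM (62.5 to 79.2), were close to them. All 13 pairs of neighbours in the order of the Il21r levels had overlapping intervals. In the C6-like class Il21r was thus low where Il7r was high.

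Over the 11 class and tissue groups with at least 100 cells, on the scale of log2(CPM + 10), Il2rb went with Il4ra (Pearson r = 0.87) and Il15ra (r = 0.85) and hardly with Il7r (r = 0.14). Il7r went most with Il2ra (r = 0.61) and least with Il21r (r = -0.38). These values describe 11 groups that share 2 libraries. Among 2277 genes with at least 100 CPM in a group, the 5 most like Il7r were Il18r1 (r = 0.93), Icos (r = 0.87), Gpr183 (r = 0.87), Smco4 (r = 0.82) and Il27ra (r = 0.81), all highest in thymic C6-like cells. The 5 most like Il2rb were Gimap3 (r = 0.98), Pla2g16 (r = 0.97), Psme1 (r = 0.95), H2-Q6 (r = 0.95) and Serpina3g (r = 0.95). Icos and Gimap3 were among the markers that name the C4-like class.

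Set against all genes, the receptor genes were read with a threshold of 2-fold in CPM, over genes for which the groups compared held 50 or more UMIs in sum. From immature to transitional-like thymic cells 5 of the 7 passed the count filter and 3 of them were at least 2-fold higher, where 3.89% of 8663 genes were, and none was lower, where 3.5% were. Il2rb was 6.77-fold higher (5.46 to 8.43), Il7r 3.25-fold (2.76 to 3.82) and Il21r 2.22-fold (2.00 to 2.47), while Il2rg had a ratio of 1.04 (0.984 to 1.11). The Il2rb and Il7r ratios are to immature levels that were not told apart from background above.

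In C6-like over C5-like hepatic cells all 7 passed the count filter, 2 were higher, where 7.77% of 8195 genes were, and 4 lower, where 8.31% were. Il7r was 43.9-fold higher (35.2 to 55.4) and Il2ra 13.8-fold (8.87 to 22.2). Il21r was 4.91-fold lower (4.21 to 5.76), Il2rb 2.57-fold (2.34 to 2.83), Il15ra 2.25-fold (1.37 to 3.93) and Il4ra 2.07-fold (1.72 to 2.51). In the Dapl1 class over C5-like hepatic cells 2 of 7 were higher, where 3.51% of 8272 genes were, and none lower, where 7.83% were. These were Il7r, 16.9-fold higher (13.5 to 21.5), and Il2ra, 2.52-fold (1.43 to 4.47). The 2 comparisons share the C5-like cells. Their Il7r ratios are to the C5-like level that was not told apart from background above. Their Il2ra ratios are to 25 UMIs in C5-like cells (3.22 CPM), the lowest level of that gene among the hepatic classes. Under the alternatives described below the C5-like level ran from 9.26 to 26.8 CPM for Il7r and from 2.41 to 8.53 CPM for Il2ra. The intervals of these ratios do not cover such moves.

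In thymic over hepatic C6-like cells 6 of 7 passed the filter, none was higher, where 2.16% of 5140 genes were, and 1 was lower, where 6.69% were. That gene was Il2ra, 2.35-fold lower (1.19 to 5.28) from 9 thymic UMIs. Il2rb was 1.81-fold lower (1.35 to 2.48) and Il7r 1.38-fold higher (1.21 to 1.56) in the thymic cells. For these cells the tissue and the library cannot be told apart. The bound on free Il2rb RNA given above was also higher in the liver than in the thymus.

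**Figure D5:**
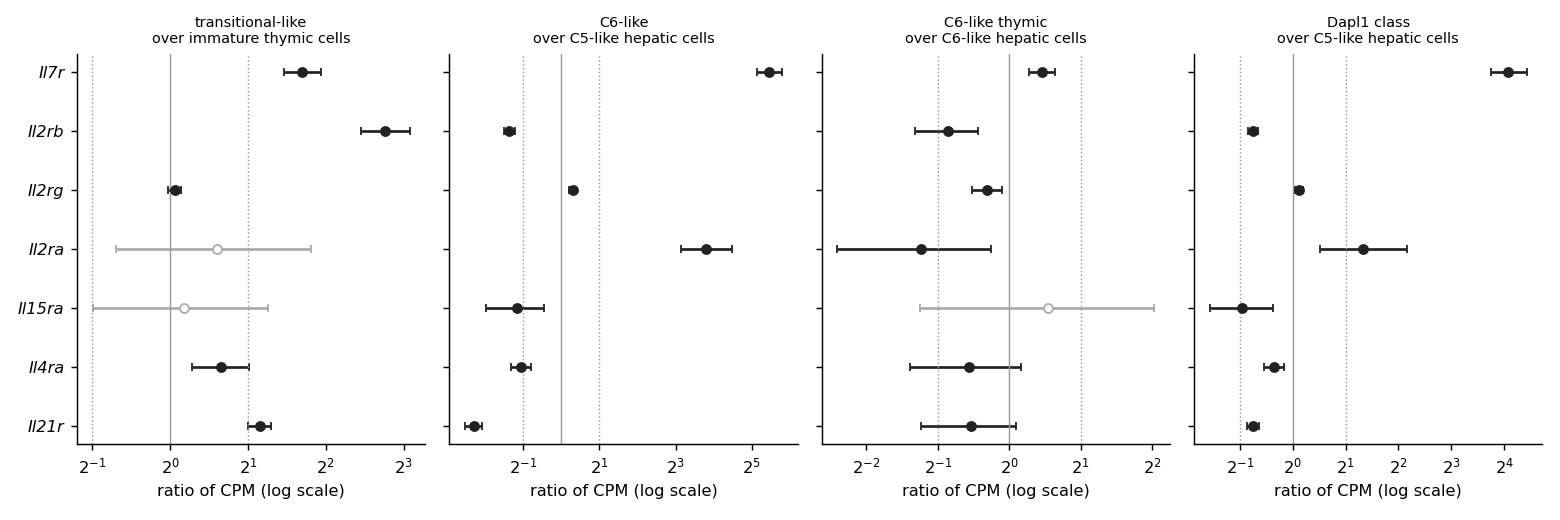
Ratio of CPM (x axes, log scale) for the 7 receptor genes in 4 comparisons of classes, with 95% exact conditional binomial intervals; dotted lines mark 2-fold either way and open grey points have fewer than 50 UMIs in sum. Il7r lies at 43.9 and Il21r at the lower end in C6-like over C5-like cells, while Il2rg stays between both dotted lines in all 4.

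The genes that work with these receptors were read from lists of 32 genes. Of the 6 cytokines, Il9 had no UMI, Il7 had 1 and Il21 had 2 over all these groups, and Il2 was highest in C5-like cells at 59.2 CPM, 3.61-fold above hepatic C6-like cells (2.62 to 5.10). Il4 stood at 45.7 CPM in C4-like and 35.3 CPM in thymic Dapl1 cells and at 0.386 CPM in C5-like cells. Of the other receptor chains, Crlf2, which pairs with Il7r to bind TSLP, was between 46.2 and 150.4 CPM in every group. Il9r did not exceed 4.19 CPM, and Il13ra1 had 19 UMIs (46.1 CPM) in C8-like cells and 2 UMIs elsewhere.

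The 7 signalling genes passed the count filter in all 4 comparisons, and 1 of them reached 2-fold in 1. In transitional-like over immature cells none did, and their median ratio on the log2 scale was 0.67 against 0.02 over all genes, with Jak1, the kinase bound by the private chains, at 367.3 against 230.6 CPM. Stat5a, a main target of IL-2, IL-7 and IL-15 receptors, was 2.49-fold higher (1.92 to 3.22) in the Dapl1 class than in C5-like cells, where 3.51% of all genes were at least 2-fold higher. Jak3, the kinase bound by Il2rg, was lowest in immature cells at 11.5 CPM and highest in C5-like cells at 37.8 CPM and thymic C6-like cells at 37.7 CPM.

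Of the 9 feedback and target genes, which these receptors induce or repress, 5 were at least 2-fold lower in thymic than in hepatic C6-like cells, where 6.69% of all genes were, and none was higher, where 2.16% were. Pim1, a kinase induced through Stat5, was 3.17-fold lower (2.80 to 3.59), Socs2 3.43-fold (1.92 to 6.74), Socs1 2.39-fold (1.65 to 3.60) and Cish 2.02-fold (1.40 to 3.00). Bcl2l11 was 2.06-fold lower with an interval of 0.899 to 5.83 that includes no difference. Il7r was higher in the same thymic cells. In hepatic C6-like over C5-like cells 2 of the 9 were higher, against 7.77% of all genes, Socs3 4.28-fold (3.70 to 4.95) and Pim1 2.45-fold (2.36 to 2.55). Lower were 2, against 8.31% of all genes, Bcl2, a survival factor, 4.99-fold (4.34 to 5.75) and Bcl2l11, which encodes the death factor Bim, 2.82-fold (2.18 to 3.70). Bcl2 stood at 428.3 CPM in C5-like, 387.8 CPM in hepatic Dapl1 and 85.9 CPM in hepatic C6-like cells. It was thus high in the class where Il7r was lowest and also in the hepatic Dapl1 class, where Il7r was 182.6 CPM. Cish, a feedback inhibitor of Stat5, was 135.4 CPM in hepatic C6-like, 103.5 CPM in C5-like, 96.6 CPM in C4-like and 33.8 CPM in hepatic Dapl1 cells, and 4.91 CPM in immature cells.

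Of the 7 transcription factors known to act on Il7r or Il2rb, Klf2 was 2.53-fold higher (2.41 to 2.65) in transitional-like than in immature cells, 2.09-fold (2.02 to 2.16) in hepatic C6-like and 2.36-fold (2.29 to 2.43) in hepatic Dapl1 cells than in C5-like cells. Tbx21 was highest in the liver, at 105.1 CPM in C7-like, 99.4 CPM in C5-like, 91.9 CPM in interferon-induced and 84.6 CPM in C4-like cells, against 22.0 CPM in hepatic C6-like cells, where it was 4.53-fold below C5-like cells (3.44 to 6.06). It had no UMI in thymic C6-like cells, and 3 UMIs, the limit taken for a count of 0, would be 6.29 CPM there. Gfi1, a known repressor of Il7r, was 3.45-fold higher (2.27 to 5.48) in C5-like than in hepatic C6-like cells, at 33.1 against 9.59 CPM, and 3.22-fold higher (2.28 to 4.66) than in the hepatic Dapl1 class. Eomes was 6.53-fold higher (4.45 to 9.80) in the hepatic Dapl1 class than in C5-like cells, at 30.2 against 4.63 CPM. Foxo1, a known activator of Il7r, was highest in transitional-like thymic cells at 136.6 CPM and was 72.7 CPM in hepatic C6-like and 43.6 CPM in C5-like cells, short of 2-fold. Ets1 and Runx3 did not reach 2-fold in any of the 4 comparisons.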

How the data were processed

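The authors deposited 1 matrix per tissue with the counts of UMIs for every gene in every cell barcode, not normalized. The submitters' processing notes name Cell Ranger, Seurat 3.0 and the build mm10. The thymic matrix ended in 2 stray lines that hold no entry and were skipped. Counts were analysed with Python 3.11.15, numpy 2.4.6, scipy 1.17.1 and pandas 2.3.3. Clusters were computed in Seurat 5.3.0 (R 4.3.3) with LogNormalize, 2000 variable genes, of which 1983 were left after removal of receptor and pathway genes, 30 principal components and resolution 0.6. Clusters were scored by the mean log2 ratio of each class's markers to the other clusters and named by the top score where it was at least 0.5 and 0.2 above the next, with 3 or more markers detected. Class and tissue groups under 20 cells, among them the thymic C4-like, C5-like, C7-like and C8-like cells, have no level. Scrublet was run in scanpy 1.11.5 and plots were drawn with matplotlib 3.10.9. The 2-fold comparisons and the likeness of patterns were tested on simulated data. The named genes are the 7 receptor genes, the pathway lists and, for Il7r and Il2rb, the 5 genes most alike among genes with at least 100 CPM in a group; the members, lists and markers were chosen with earlier results of these data known. A planned search for the WSxWS motif in protein sequences was not made. Alternatives changed resolution, components, variable genes, filters on cells, doublets, joint clustering, thinning, the total, the count minimum and the fold. The values of 1 gene of the pathway lists are not reported here.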

Additional observations from a re-analysis of the deposited data

How the results depend on the processing

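Of 168 class shares, cell shares and counts of receptor genes recomputed under alternatives, 140 stayed within the interval, or within 1.5 times the count, first reported, and the other 28 follow. The Il7r share of hepatic Dapl1 cells (38.6%) was 41.6% at resolution 0.8, 41.5% with 20 principal components, 41.3% with 3000 variable genes, 42.2% with at least 500 genes per cell and 43.8% with the highest Scrublet scores removed, which put C6-like cells at 75.7%. Thinning to 1500 UMIs put C6-like cells at 76.0%. C4-like cells (20.2%) were at 23.2% at resolution 0.8, 18.8% with at least 500 genes, 21.4% with at most 10% mitochondrial UMIs and 18.5% with each library clustered alone. C5-like cells (2.16%) were at 2.72% at resolution 0.4, 5.44% at resolution 0.8 and 2.71% with at most 10% mitochondrial UMIs. The order of the hepatic C6-like, Dapl1, C4-like and C5-like shares held under each of these.

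Cells with both genes in the hepatic Dapl1, C4-like and C6-like classes were 3.23%, 3.75% and 6.68% at 1000 UMIs, 9.99%, 10.8% and 14.0% at 2000 UMIs and 20.02%, 16.4% and 27.7% without thinning, as more UMIs per cell detect more genes. With Cd24a read at 1000 UMIs, the Il7r share at 3 or more Cd24a UMIs was 100%, from 3 UMIs. With at least 200 UMIs, 1 receptor gene was higher in C6-like than in C5-like and 1 in Dapl1 than in C5-like hepatic cells, and 0 were lower in thymic than in hepatic C6-like cells. At 1.5-fold, 2 were lower in thymic than in hepatic C6-like cells and 3 in Dapl1 than in C5-like cells. Leaving mitochondrial and ribosomal-protein genes out of the total raised the levels of a class by a common factor of up to 1.59. Some levels moved further under other alternatives, among them Il7r and Il2ra in C5-like cells, up to 26.8 and 8.53 CPM. The ratios to C5-like cells move with these levels. The cause was not tested for the moves with clustering and filters. No replicate could be left out and no paired analysis was possible because each tissue has 1 library.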

Other observations

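Clustered alone, the liver split the cells next to the C4-like class. A cluster of 1752 cells led by Il4, Ly6a and Socs2 and with Cd28, Cd40lg and Icos among its leading genes held Il7r at 148.9 CPM (138.4 to 160.0) and Il2rb at 481.7 CPM (462.6 to 501.4), a share of Il7r in the pair of 23.6% (22.1% to 25.1%). A cluster of 1502 cells led by Lilr4b, Lilrb4a and Cd160, an NK cell and T cell receptor, with Klrc1 and Klrc2 among its leading genes, passed no class and held Il7r at 53.7 CPM (47.2 to 60.9) and Il2rb at 429.8 CPM (410.9 to 449.4), a share of 11.1% (9.82% to 12.5%). Il2ra was 30.1 CPM (25.4 to 35.3) in the first and 15.5 CPM (12.1 to 19.6) in the second, and Il21r was 205.3 CPM (192.9 to 218.2) and 267.5 CPM (252.7 to 283.0). The second cluster stood between the C4-like and the C5-like class in Il7r, Il2ra and Il21r, but not in Il2rb.

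Cycling cells differed between the tissues in Il2rb more than in Il7r, as did all cells together (8.85-fold and 1.67-fold higher in the liver). For cycling cells, too, the tissue and the library cannot be told apart. The bound on free Il2rb RNA was higher in the liver. Il2rb was 218.4 CPM (169.6 to 276.9) in 42 hepatic and 30.5 CPM (25.4 to 36.4) in 529 thymic cycling cells, while Il7r was 32.1 CPM (15.4 to 59.1) and 44.9 CPM (38.6 to 52.0), with overlapping intervals. The 74 interferon-induced hepatic cells held Il2rb at 413.4 CPM (332.4 to 508.1) and Il21r at 294.0 CPM (226.4 to 375.4).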
